A study of Mus musculus with 6 samples.

Results

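Immediate early genes in Mll-AF9 leukemia cells with and without Rpl22 are described by 10 members, Fos, Fosb, Jun, Junb, Egr1, Klf6, Ier2, Dusp1, Atf3 and Nr4a1. The 10 genes were chosen by their levels in these same libraries, which had been seen to differ among the Rpl22-/- libraries, so their spread within that genotype is given as a description and carries no test. All 10 were found by symbol among 29374 genes with any read, and all 10 passed the filter on low counts that left 16656 genes for testing. RNA was sequenced from splenocytes that carried CD11b and Gr1, surface antigens of granulocytes and monocytes, and that were sorted by flow cytometry from tumor-bearing mice. All mice carried Mll-AF9, a fusion of the Mll gene to AF9 that drives acute myeloid leukemia and that the study describes as a knockin in some places and a transgene in others. Groups were 3 libraries from Rpl22+/+ animals and 3 from Rpl22-/- animals, which lack the ribosomal protein Rpl22. The study's methods describe its Rpl22 strains as young adults on a C57BL/6 background, and no treatment or age at collection is given for the leukemic animals of these libraries. The labels are silent on whether the replicates are different mice, and the study's text names a single mouse per genotype for its explants. P-values below therefore measure the spread between libraries, which may be technical. In bulk RNA, fewer expressing cells and less RNA per cell cannot be told apart.

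Depth was 70202750 to 102866127 estimated reads in 5 libraries and 35828500 in Rpl22-/- replicate 1, the library in which most of these genes were lowest. The level of Rpl22 differed in the direction of the labels, with 148, 235 and 152 CPM (counts scaled to a common library size) in Rpl22+/+ against 58.3, 89.9 and 73.5 CPM in Rpl22-/-. By edgeR this was a difference of -1.27 ± 0.25 on the log2 scale (adjusted p = 0.0106). Reads of Rpl22 thus remained in every Rpl22-/- library, and whether they fall in the deleted part of the gene was not tested. Rpl22+/+ replicate 2 stood apart from replicates 1 and 3, with correlations of log2 CPM across 13199 genes of 0.926 and 0.934 against 0.992 between those 2. Every pair of libraries differed by more than the noise of counting. Of the sorted antigens, Itgam, which encodes CD11b, was present at 245 to 562 TPM (Salmon's abundance unit, a level per transcript length) in all 6 libraries. Ly6g, part of the Gr1 epitope, was at 236 to 259 TPM in Rpl22+/+ and 18.8 to 27.8 TPM in Rpl22-/-, and Ly6c2, the other gene of that epitope, was at 1680 to 3300 TPM.

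Immediate early genes are switched on within minutes of a stimulus without new protein synthesis, because the transcription factors that drive them are already present and only need to be modified. Growth factor, cytokine and stress signals reach them through MAP kinases, which act on serum response factor with its Elk and Mrtf partners and on CREB. Their mRNAs are short-lived, since AU-rich elements recruit decay factors, and products such as Dusp1 switch the kinases off again. In myeloid cells the same genes respond to adhesion, to microbial products and to handling of tissue, including dissociation and sorting. Fos and Jun proteins form the dimeric factor AP-1.

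Promoters are shown because these genes moved together across libraries, and because cyclic AMP response elements (CRE), serum response elements, AP-1 sites and TATA boxes are the classical control sequences of this class. RefSeq windows of 300 bases, 250 before and 50 after the start (GRCm38.p6), were matched for 8 of the 10 genes (all but Egr1 and Ier2). They were searched on both strands for exact matches only. The CRE core TGACG was found in 6 of the 8 (Fos, Fosb, Junb, Dusp1, Atf3 and Nr4a1) and in 20.81% of 32851 windows of all genes. Nr4a1 held 4 cores, and Dusp1 held 3, of which a pair overlapped in the only full CRE, TGACGTCA, a sequence found in 1.79% of all windows. A TATA box, TATAAA, lay 33 bases before the start of Fos, and the same letters began at the start itself (0 bases before it) in Junb, against 13.62% of windows. An NF-kB pattern was in 7 of the 8 and in 50.79% of all windows. No window held an exact match to the AP-1 site TGANTCA (7.81% of all windows) or to a CArG box, the core of the serum response element (1.63%). Near matches with other letters and sites outside these 300 bases were not counted, so such elements may still be present. Jun held neither a CRE core nor a TATA box. A match is a stretch of letters and not a shown binding site. The 250 bases before the start are printed for Fos at chr12:85473640-85473889 (+ strand), Dusp1 at chr17:26508473-26508722 (- strand), Nr4a1 at chr15:101266596-101266845 (+ strand) and Jun at chr4:95052223-95052472 (- strand), with CRE cores and the TATA box in capitals.
Fos: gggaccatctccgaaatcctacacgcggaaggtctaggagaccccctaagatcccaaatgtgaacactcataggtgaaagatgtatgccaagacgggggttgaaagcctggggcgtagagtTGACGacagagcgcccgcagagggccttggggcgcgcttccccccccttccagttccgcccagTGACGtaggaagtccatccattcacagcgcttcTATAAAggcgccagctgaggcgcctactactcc
Dusp1: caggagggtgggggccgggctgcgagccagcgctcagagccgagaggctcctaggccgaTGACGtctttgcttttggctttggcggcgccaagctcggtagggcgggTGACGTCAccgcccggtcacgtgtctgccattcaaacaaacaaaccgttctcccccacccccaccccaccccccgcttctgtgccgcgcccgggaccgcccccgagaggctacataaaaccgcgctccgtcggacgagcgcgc
Nr4a1: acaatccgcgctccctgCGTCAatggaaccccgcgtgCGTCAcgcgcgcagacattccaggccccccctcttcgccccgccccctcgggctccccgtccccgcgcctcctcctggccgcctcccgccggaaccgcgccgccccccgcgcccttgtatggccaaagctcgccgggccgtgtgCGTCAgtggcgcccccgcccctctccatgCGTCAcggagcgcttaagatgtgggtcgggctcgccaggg
Jun: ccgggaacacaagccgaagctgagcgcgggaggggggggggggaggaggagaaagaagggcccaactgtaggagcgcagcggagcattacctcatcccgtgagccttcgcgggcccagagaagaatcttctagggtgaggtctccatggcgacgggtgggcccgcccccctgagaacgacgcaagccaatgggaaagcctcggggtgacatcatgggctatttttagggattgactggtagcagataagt

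The 4 AP-1 subunits differed several-fold between the Rpl22-/- libraries. Fos (ENSMUSG00000021250, chromosome 12, 85520664 to 85524047, gene positions on GRCm39) encodes the prototype partner of Jun proteins. It had 704, 985 and 857 TPM in Rpl22+/+ replicates 1 to 3 and 508, 1240 and 1950 TPM in Rpl22-/- replicates 1 to 3. Rpl22-/- replicate 1 was thus below every Rpl22+/+ library and replicates 2 and 3 above them, with 3.83 times more in replicate 3 than in replicate 1. Fosb (chromosome 7, 19036621 to 19043976), a Fos paralog, had 315, 310 and 232 TPM against 229, 436 and 1050 TPM. Rpl22-/- replicate 1 was just below the lowest Rpl22+/+ library, and replicate 3 held 4.57 times as much.

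Jun (chromosome 4, 94937271 to 94940459) encodes the subunit that binds DNA with Fos or with itself. It had 231, 309 and 290 TPM in Rpl22+/+ and 356, 812 and 2020 TPM in Rpl22-/-. It was the only member with every Rpl22-/- library above every Rpl22+/+ library in TPM. In CPM the groups overlapped, since Rpl22+/+ replicate 2 reached 924 CPM against 787 CPM in Rpl22-/- replicate 1. Junb (chromosome 8, 85701113 to 85705347), whose product is a weaker activator that can compete with Jun, had 319, 459 and 374 TPM against 135, 333 and 634 TPM. Its Rpl22+/+ values lay between the lowest and the highest Rpl22-/- library.

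Egr1 and Klf6 encode zinc-finger transcription factors, and Nr4a1 an orphan nuclear receptor that monocytes need to mature. Egr1 (chromosome 18) had 23.7, 28.0 and 28.0 TPM in Rpl22+/+, the narrowest Rpl22+/+ spread of the 10 in TPM, and 14.0, 43.2 and 80.9 TPM in Rpl22-/-. Klf6 (chromosome 13, 5911481 to 5920393) had 114, 76.2 and 144 TPM against 42.9, 69.7 and 238 TPM. Here both Rpl22-/- replicates 1 and 2 lay below all Rpl22+/+ libraries and replicate 3 above them. Nr4a1 (chromosome 15, 101152150 to 101172676) had 61.8, 96.2 and 123 TPM against 15.4, 58.0 and 219 TPM, the same arrangement with a 14.2-fold difference between Rpl22-/- replicates 3 and 1.

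Atf3 (chromosome 1, 190902493 to 190950236), a stress-induced factor of the CREB family that can dimerize with Jun, spread most widely. It had 16.2, 41.5 and 47.6 TPM in Rpl22+/+ and 1.49, 27.3 and 166 TPM in Rpl22-/-, a 111-fold difference between replicates 3 and 1. The low value rested on 74 estimated reads in Rpl22-/- replicate 1 (95% exact Poisson interval 58.1 to 92.9, counting error only), against 24800 in replicate 3.

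Ier2 and Dusp1 complete the set. Ier2 (chromosome 8, 85387960 to 85389483), a small nuclear protein of the immediate early class, varied least, with 266, 345 and 281 TPM against 141, 282 and 401 TPM. It lies 311630 bases from Junb on the same chromosome. Dusp1 (chromosome 17, 26724564 to 26781102) encodes a phosphatase that inactivates MAP kinases. It had 317, 427 and 322 TPM in Rpl22+/+ and 162, 526 and 956 TPM in Rpl22-/-, so that replicates 2 and 3 were above and replicate 1 below every Rpl22+/+ library.

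**Figure D1:**
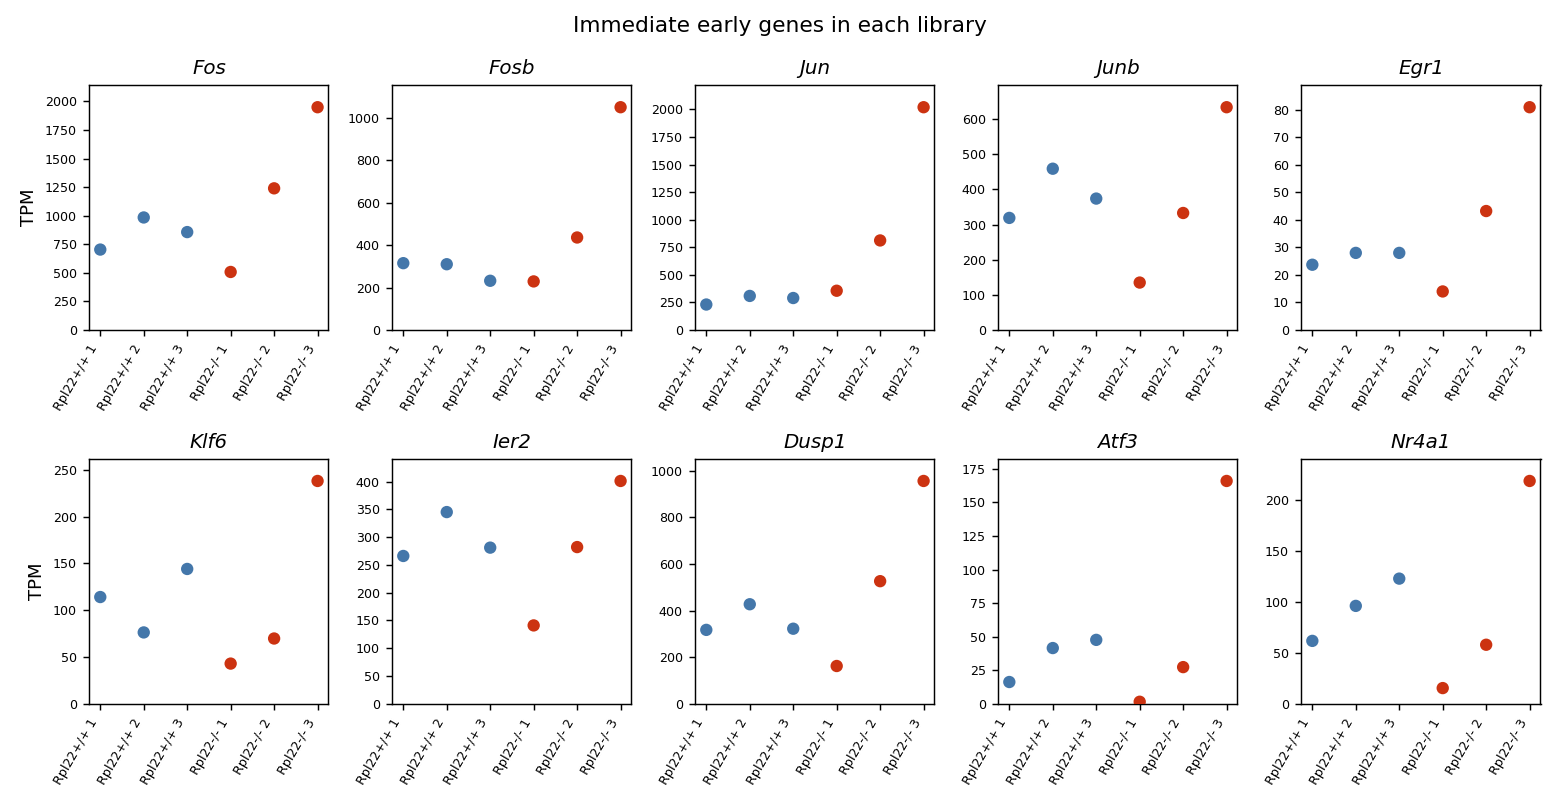
TPM of the 10 genes (vertical axes, linear from 0, a separate scale for each gene) in each of the 6 libraries, Rpl22+/+ in blue and Rpl22-/- in red, 1 point per library. Rpl22-/- replicate 3 is the highest point for all 10 genes, at 1950 TPM for Fos and 166 TPM for Atf3, and replicate 1 the lowest for all but Jun.

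Across the set, Rpl22-/- replicate 1 was lowest, replicate 2 intermediate and replicate 3 highest of the 3 Rpl22-/- libraries in 10 of 10 genes, an arrangement that 14.1% of all tested genes had in CPM. Replicate 3 was the highest of all 6 libraries for 10 genes in TPM and for 9 in CPM, where Ier2 was higher in Rpl22+/+ replicate 2. Replicate 1 was the lowest of all 6 for 9 genes. All 3 Rpl22+/+ libraries lay between Rpl22-/- replicates 1 and 3 for 9 genes in TPM and 8 in CPM, compared with 1.92% of tested genes in CPM. The range over the Rpl22-/- libraries was 1.59 to 6.87 log2 CPM (median 2.57), while all tested genes had a median of 0.38. Over the Rpl22+/+ libraries the range was 0.62 to 1.73 log2 CPM (median 0.82), beside a median of 0.61 for all tested genes. That comparison turned with a correction for GC content, to 0.48 for the 10 genes and 0.59 for all, and the median of the 10 was 0.46 on log2(TPM + 0.1). Summed over the 10 genes, the level was 2370, 3080 and 2700 TPM in Rpl22+/+ and 1600, 3820 and 7710 TPM in Rpl22-/-. These counts restate the choice of the genes and support nothing by themselves.

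Rpl22-/- replicate 3 exceeded the mean of replicates 1 and 2 by 0.99 (Ier2) to 4.68 (Atf3) log2 CPM, with a median of 1.75. The difference was 1.37 for Fos, 1.63 for Fosb, 1.90 for Jun and 1.57 for Junb. It was 1.70 for Egr1, 1.79 for Dusp1, 2.12 for Klf6 and 2.92 for Nr4a1. Replicate 2 also stood between 1.63 times (Klf6) and 18.3 times (Atf3) above replicate 1 in TPM, so replicates 1 and 2 did not form a uniform pair.

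In the order of Rpl22+/+ levels per length, Fos stood first with 848 ± 141 TPM (mean ± SD, n = 3). Junb (384 ± 70.8), Dusp1 (355 ± 62.2), Ier2 (297 ± 41.9), Fosb (286 ± 46.3) and Jun (277 ± 40.5 TPM) followed. Neighbours among these 5 were within 1 SD of each other, by the larger SD of each pair. Klf6 (111 ± 33.9) and Nr4a1 (93.7 ± 30.7 TPM) were likewise within their spread, as were Atf3 (35.1 ± 16.6) and Egr1 (26.6 ± 2.5 TPM). In Rpl22-/- the means were 1230 ± 720 TPM for Fos and 1060 ± 860 TPM for Jun, which overlapped. The SD was larger in Rpl22-/- than in Rpl22+/+ for all 10 genes in TPM.

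Between genotypes, 0 of the 10 genes passed an adjusted p-value of 0.05 in edgeR's quasi-likelihood test, whereas 27.6% of all 16656 tested genes did. At an unadjusted p under 0.05, 1 gene (Jun) passed in edgeR and in DESeq2 and 0 in limma-voom, beside 39.0% of all genes in edgeR. Groups did not overlap in CPM for 0 of the 10, against 46.1% of all genes, and every Rpl22-/- library was above every Rpl22+/+ library in 23.9% of all genes. Since the genes were chosen for a wide spread within Rpl22-/-, their standard errors are large by that choice, and a missing call does not show equal levels. The median log2 fold change of the 10 was 0.46, and that of all tested genes was 0.07.

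Jun had the largest genotype difference of the 10, with 277 ± 40.5 TPM in Rpl22+/+ and 1060 ± 860 TPM in Rpl22-/-. Its fitted log2 fold change was 1.83 ± 0.61 (SE, adjusted p = 0.0683, edgeR), and over 18 alternatives it was 1.00 to 2.26 with an adjusted p of 0.0048 to 0.196. With the replicate number as a block it was 1.49 (adjusted p = 0.044, edgeR), where 33.8% of all genes were called. Without Rpl22-/- replicate 1 it was 2.26 (adjusted p = 0.021, edgeR), where 17.5% were called, and without replicate 3 it was 1.00 and was not called. DESeq2 also called Jun (adjusted p = 0.0048), along with 25% of the genes it tested. Fosb at 0.84 ± 0.52 (adjusted p = 0.285) and Egr1 at 0.69 ± 0.58 (adjusted p = 0.435) were, with Jun, the only members whose fitted difference had the same sign in all 18 alternatives. Their size was not stable, since without Rpl22-/- replicate 3 Fosb was at 0.15 and Egr1 at 0.052, and without replicate 1 they were at 1.23 and 1.14.

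The other 7 genes changed sign with the choice of libraries, and some also with the test. Dusp1 had a log2 fold change of 0.52 ± 0.63 and Fos of 0.41 ± 0.52, and both were below 0 (-0.15 and -0.086) without Rpl22-/- replicate 3. Junb at -0.18 ± 0.55 and Ier2 at -0.22 ± 0.41 were above 0 (0.23 and 0.11) without Rpl22-/- replicate 1. Nr4a1 at -0.02 ± 0.85 ran from -1.44 without Rpl22-/- replicate 3 to 0.49 without replicate 1. Klf6 at 0.046 ± 0.61 ran from -0.98 to 0.46 under the same omissions. Atf3 at 0.76 ± 1.29 ran from -1.31 to 1.34. For these genes the spread between Rpl22-/- libraries exceeded the difference between the genotypes.

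**Figure D2:**
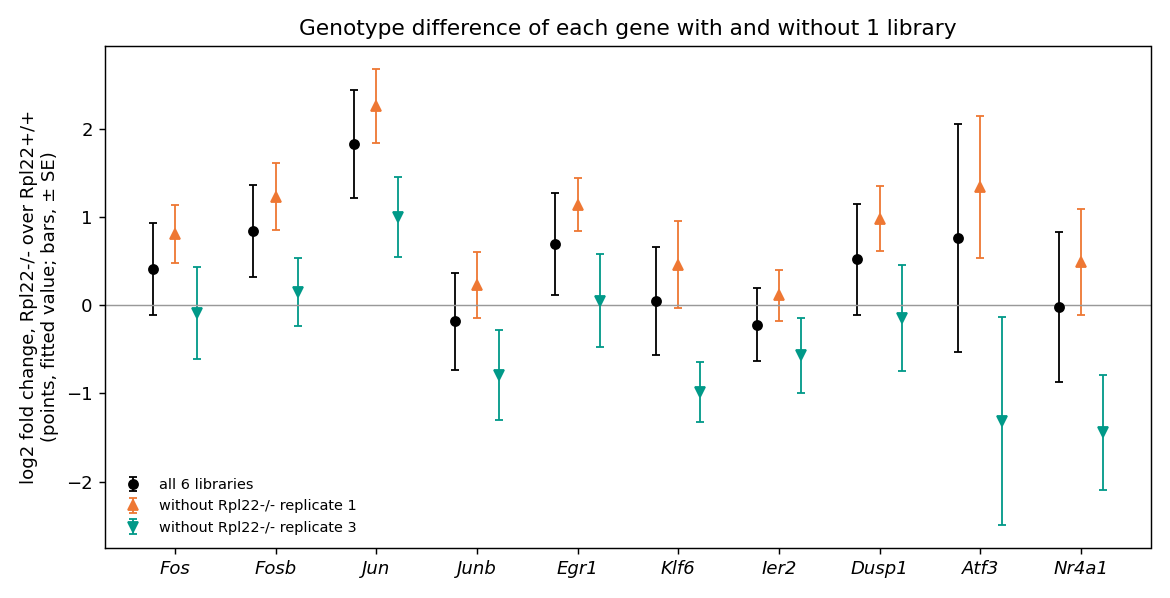
Fitted log2 fold change of each gene (vertical axis, Rpl22-/- over Rpl22+/+; bars, SE) from all 6 libraries in black, without Rpl22-/- replicate 1 in orange and without Rpl22-/- replicate 3 in green. Each gene is highest without replicate 1 and lowest without replicate 3, and Jun lies above 0 in all 3 fits, at 1.83, 2.26 and 1.00.

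Ratios between members within a library do not depend on depth or scaling factors, and were taken after the values had been seen. Jun was at 0.725, 0.673 and 0.774 of the Junb level in the Rpl22+/+ libraries and at 2.64, 2.44 and 3.19 times the Junb level in the Rpl22-/- libraries (TPM). The mean log2 ratio was -0.47 ± 0.10 in Rpl22+/+ and 1.45 ± 0.20 in Rpl22-/- (SD, n = 3 each), given as a description with no test because the pair was picked for its values. It was similar in the 3 Rpl22-/- libraries although Jun itself differed 5.67-fold between replicates 3 and 1. Relative to Fos, Jun was at 0.328, 0.314 and 0.338 in Rpl22+/+ and 0.701, 0.655 and 1.04 in Rpl22-/-. Of the 45 possible pairs, 15 had ratios that did not overlap between genotypes, among them 8 of the 9 pairs with Jun and 7 of the 36 without. Over all pairs of tested genes 46.5% did not overlap, and over all pairs of Jun with a tested gene 37.2%, so the count over the 45 pairs is no result about the members. In the pairs without Jun, Fosb was higher relative to Junb in Rpl22-/- (1.70, 1.31 and 1.65, against 0.987, 0.674 and 0.621), and Fos relative to Junb too (3.77, 3.73 and 3.07, against 2.21, 2.14 and 2.29). With estimated counts in place of TPM, 14 pairs did not overlap, 8 of them with Jun.

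Transcripts of a single gene did not all follow the same arrangement. Among the 10, 4 genes have annotated transcripts that hold at least 200 bases of an intron of the most abundant coding transcript, a class defined after the values had been seen, and its split from the other transcripts is an estimate of Salmon's model. For Dusp1, the 2 intron-containing transcripts summed to 84.3, 69.5 and 73.6 TPM in Rpl22+/+ and 106, 148 and 105 TPM in Rpl22-/-. The other Dusp1 transcripts were at 232, 358 and 249 TPM against 55.6, 378 and 852 TPM. Rpl22-/- replicates 3 and 1 thus differed 15.3-fold in the spliced forms and 0.991-fold in the intron-containing ones. The intron-containing share was 65.6% in Rpl22-/- replicate 1 and 10.9% in replicate 3, with 16.3% to 26.6% in Rpl22+/+.

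Fos gave a similar picture. Fos-203, which holds 244 bases of intron sequence, was at 72.4, 72.4 and 88.8 TPM in Rpl22+/+ and 119, 158 and 153 TPM in Rpl22-/-. Rpl22-/- replicates 3 and 1 differed 1.29-fold in this transcript and 4.6-fold in the others. Fosb-204, with 2461 intron bases, had 106, 80.2 and 64.2 TPM against 82.3, 125 and 192 TPM, a 2.33-fold difference between those replicates beside 5.86-fold in the other Fosb transcripts. For Nr4a1 the class moved with the rest, by 13.3-fold against 14.3-fold. Klf6-202, annotated as a retained-intron transcript but with 98 intron bases and so outside the class, had 20.4, 18.0 and 28.7 TPM in Rpl22+/+ and 7.64, 12.8 and 34.3 TPM in Rpl22-/-, with replicate 3 highest as for the whole gene. Across 4426 genes with a coding transcript and at least 50 reads in annotated retained-intron transcripts, an annotation that includes Klf6-202 and not Fos-203, the median share of TPM in them was 7.30% to 15.5% in Rpl22+/+ and 18.5%, 12.8% and 14.8% in Rpl22-/- replicates 1 to 3. Jun, Junb and Ier2 have coding transcripts of a single exon, so no such split exists for them.

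**Figure D3:**
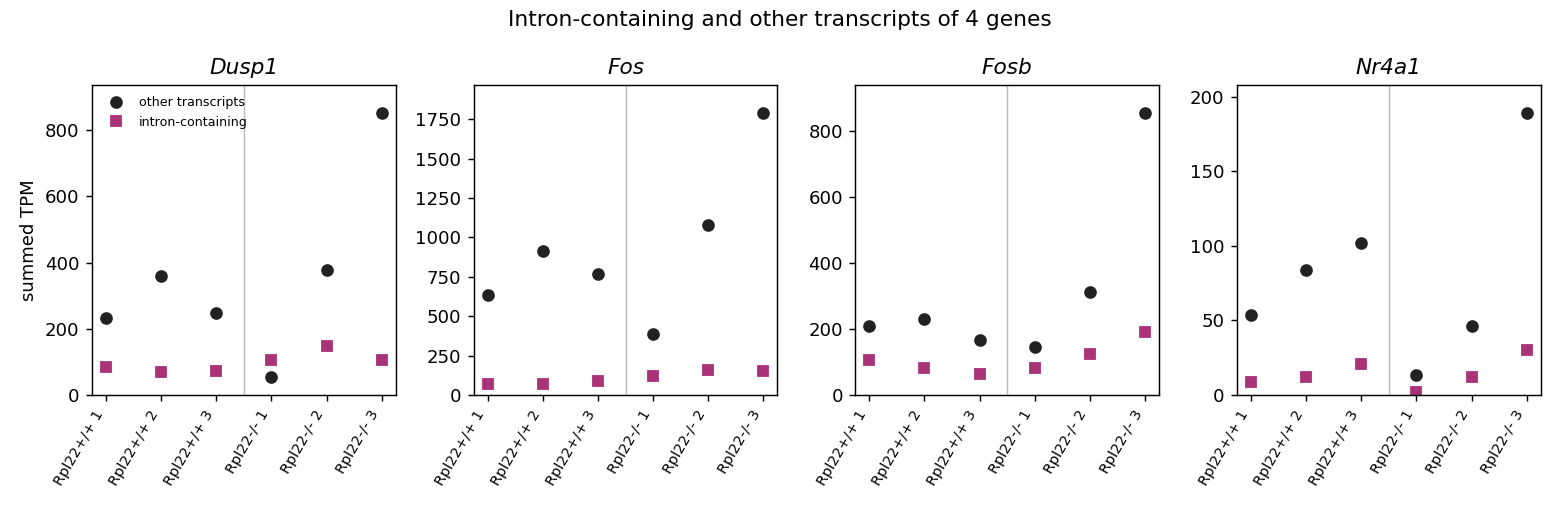
Summed TPM (vertical axes, linear from 0) of intron-containing transcripts (squares) and all other transcripts (circles) of Dusp1, Fos, Fosb and Nr4a1 in each library. In Dusp1 the squares stay between 69.5 and 148 TPM while the circles run from 55.6 to 852 TPM.

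Fosb also has transcripts that lack 140 bases from inside the last exon. That excision is the known source of the shortened protein ΔFosB, which has lost the C-terminal activation region and is more stable than FosB. The 2 transcripts with it summed to 9.97, 19.2 and 13.9 TPM in Rpl22+/+ and 2.68, 33.2 and 172 TPM in Rpl22-/-. Their share of Fosb was 3.16%, 6.2% and 5.98% in Rpl22+/+ and 1.17%, 7.61% and 16.4% in Rpl22-/-. Between Rpl22-/- replicates 3 and 1 they differed 64.2-fold, while the remaining Fosb transcripts differed 3.87-fold. Rpl22-/- replicate 1 held 195 reads in this class and replicate 3 held 24396. Of the 2, Fosb-206 had 0.758 TPM (19.1 reads) in replicate 1 and 115 TPM in replicate 3, and Fosb-207 had 1.92 and 57.1 TPM. As for the intron class, this split is an estimate of Salmon's model and was made after the values had been seen.

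Other immediate early genes, a list of 39 of which 37 were tested, took the arrangement of the 10 genes in 34 cases (replicate 1 lowest and replicate 3 highest of the Rpl22-/- libraries), with a median difference of 2.09 log2 CPM between replicates 3 and 1 beside -0.027 for all tested genes. Nr4a3, a receptor related to Nr4a1, had 0.393, 0.221 and 0.36 TPM in Rpl22+/+ and 0.159, 0.261 and 2.80 TPM in Rpl22-/-. Plk3, a stress-responsive kinase, had 24.6, 31.1 and 35.9 TPM against 11.6, 29.5 and 199 TPM. Between genotypes 2 of the 37 rose and 0 fell, which is below the 13.7% and 13.8% of all genes called in these directions. Myc, the growth-promoting factor, rose from 22.9 ± 0.82 to 82.9 ± 8.64 TPM (log2 fold change 1.79 ± 0.18, adjusted p = 0.000804, edgeR). With 92.8, 76.9 and 78.9 TPM in the Rpl22-/- libraries it did not take the arrangement, nor did Pim1 with 303, 259 and 270 TPM. Arc rose from 0.897 ± 0.25 to 3.02 ± 1.78 TPM (adjusted p = 0.045, edgeR) and was called in 2 of 6 fits that left out a library. Those fits called 1 to 4 of the list higher and 0 to 3 lower, with 4 higher without Rpl22+/+ replicate 2 and 3 lower without Rpl22-/- replicate 3. Over all genes, 3540 were higher in the former of these fits and 1392 lower in the latter. The block called 33.8% of all genes. With it, 3 genes of the list were higher (Egr4 added, adjusted p = 0.0331, edgeR) and 2 lower (Btg1 and Trib1, adjusted p = 0.0416 and 0.0448).

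Partners of Fos and Jun in AP-1 dimers were mixed. Of 15 genes, 8 took the arrangement, and 0 were called between genotypes (edgeR), beside 27.6% of all genes. At an unadjusted p under 0.05 there were 2, beside 39.0% of all genes. Under the block 1 was lower, Fosl2 (adjusted p = 0.0349, edgeR). Without Rpl22+/+ replicate 2, 1 was higher and 1 lower, and without Rpl22-/- replicate 3, 1 was lower. The block called 33.8% of all genes. Over all genes, 3540 were higher and 3311 lower without Rpl22+/+ replicate 2, and 1392 lower without Rpl22-/- replicate 3. Fosl1, a Fos paralog, had 1.31, 3.69 and 3.08 TPM in Rpl22+/+ and 0.219, 1.71 and 12.9 TPM in Rpl22-/-. Maff, a small Maf protein, had 2.25, 3.10 and 3.12 TPM against 1.36, 3.75 and 22.4 TPM. Jund, the Jun paralog that most cells express without a stimulus, had 347, 491 and 364 TPM against 171, 406 and 762 TPM, while Batf and Jdp2 stayed within 29.7 to 34.9 and 52.7 to 56.7 TPM over the Rpl22-/- libraries.

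The mRNA levels of upstream regulators did not vary in this way, and the modification of their proteins was not measured. Among 19 kinases and transcription factors of the pathway, 1 took the arrangement (Srf, 84.7, 89.9 and 104 TPM in Rpl22-/-), and differences between Rpl22-/- replicates 3 and 1 ran from -0.58 to 0.26 log2 CPM. Map2k1, the kinase that activates ERK, had 73, 76.3 and 73.9 TPM in Rpl22+/+ and 60.1, 60.3 and 56.1 TPM in Rpl22-/-. Between genotypes 6 fell and 0 rose, beside 13.8% and 13.7% of all genes. Mrtfa, a coactivator of serum response factor, fell from 93.0 ± 2.68 to 46.6 ± 7.77 TPM (log2 fold change -1.13 ± 0.17, adjusted p = 0.00362, edgeR) and was called in all 6 fits that left out a library. The kinase Mapk14 fell by 0.74 on the log2 scale (adjusted p = 0.00989, edgeR) and was called in 5 of 6, not without Rpl22-/- replicate 3. Elk1, which partners serum response factor, fell by 0.53 (adjusted p = 0.0423) and was called in 1 of 6. Leaving out a library gave 1 to 8 lower genes in this list and 0 to 2 higher ones, the lowest count without Rpl22-/- replicate 3 and the highest without Rpl22+/+ replicate 2. Over all genes, calls lower were likewise fewest in the former fit (1392) and most in the latter (3311).

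Of 12 tested feedback inhibitors of the pathway, 4 were called between genotypes, 2 higher and 2 lower, near the 27.6% of all genes. Among the Rpl22-/- libraries 9 took the arrangement (median difference 1.18 log2 CPM). Dusp4 had 0.487, 0.568 and 0.644 TPM in Rpl22+/+ and 0.0427, 0.244 and 1.28 TPM in Rpl22-/-, and Dusp5 had 13.6, 17.3 and 14.6 against 5.37, 11 and 49.5 TPM. Nab2, a corepressor that binds Egr1, rose from 4.38 ± 0.35 to 12.4 ± 1.1 TPM (log2 fold change 1.44 ± 0.19, adjusted p = 0.00215, edgeR), and Spry2, an inhibitor of Ras signaling, rose from 4.06 ± 0.40 to 12.6 ± 3.02 TPM (1.51 ± 0.24, adjusted p = 0.00505). The phosphatase Dusp16 fell by 0.97 (adjusted p = 0.00633) and Spred1 by 0.57 (adjusted p = 0.0337) on the log2 scale. Nab2, Spry2 and Dusp16 were called in all 6 fits that left out a library and Spred1 in 1.

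Decay factors of AU-rich mRNAs that are not themselves immediate early genes differed little across the Rpl22-/- libraries in most cases. Of 9 genes, 2 took the arrangement, with a median difference of -0.034 log2 CPM between replicates 3 and 1. Zfp36l1 was at 29.6, 21.4 and 32.1 TPM in Rpl22+/+ and 26.7, 36.1 and 96.2 TPM in Rpl22-/-, and Zfp36l2 at 165, 175 and 183 against 139, 140 and 177 TPM. Zfp36, which encodes the decay factor tristetraprolin and was counted among the other immediate early genes, had 552, 629 and 570 TPM against 267, 462 and 919 TPM. By edgeR 0 of the 9 were called, beside 27.6% of all genes, and 2 of them had an unadjusted p under 0.05, beside 39.0% of all genes. Without Rpl22+/+ replicate 2, 1 was higher, and Tial1 was called higher with the block (adjusted p = 0.0323, edgeR). Over all genes, 3540 and 2943 were higher in these fits.

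Genes that immediate early factors and NF-kB induce in myeloid cells took the arrangement in 11 of 11 tested genes, by a median of 3.17 log2 CPM. Ptgs2, the inducible cyclooxygenase, had 1.80, 0.538 and 2.58 TPM in Rpl22+/+ and 0.298, 1.77 and 12 TPM in Rpl22-/-. The chemokine gene Ccl4 had 6.55, 8.92 and 17.5 TPM against 3.13, 11 and 63.8 TPM. Icam1, an adhesion molecule, fell from 30.5 ± 3.72 to 14.0 ± 2.21 TPM (log2 fold change -1.24 ± 0.24, adjusted p = 0.011, edgeR) and was the only gene of the 11 called, beside 13.8% of all genes lower and 13.7% higher. It was called in all 6 fits that left out a library, together with 2 more lower genes without Rpl22-/- replicate 3. In that last fit 1392 of all genes were lower.

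Heat shock genes, which respond to protein damage through another factor, rose by genotype in 4 of 11 cases and fell in 0, beside 13.7% of all genes higher and 13.8% lower. Hspa8, a constitutive chaperone, went from 1080 ± 113 to 2270 ± 504 TPM (log2 fold change 0.97 ± 0.25, adjusted p = 0.0309, edgeR), and its cochaperone Dnaja1 from 86.0 ± 42.6 to 309 ± 136 TPM (1.79 ± 0.41, adjusted p = 0.0201). Hspd1 and Hsph1 had smaller differences of 0.46 and 0.71 (adjusted p = 0.0359 and 0.0302). The count was 8 with the block, 7 without Rpl22+/+ replicate 2 and 0 without Rpl22+/+ replicate 1, Rpl22-/- replicate 2 or Rpl22-/- replicate 3. Calls higher over all genes moved too, from 2288 in the main fit to 2943 with the block and 3540 without Rpl22+/+ replicate 2. They were 1396, 1629 and 1369 in the fits with 0, in that order. The stress-inducible pair Hspa1a and Hspa1b, near-identical copies whose reads could be split either way, had 16.4, 62.3 and 293 TPM and 16.0, 48.8 and 267 TPM in Rpl22-/-. Neither was called in the fit without the block (adjusted p = 0.155 and 0.305, edgeR), and both were called higher with it (adjusted p = 0.00943 and 0.0398). In Rpl22+/+ Hspa1a had 7.28, 17.1 and 42.3 TPM, with replicate 3 highest there too.

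**Figure D4:**
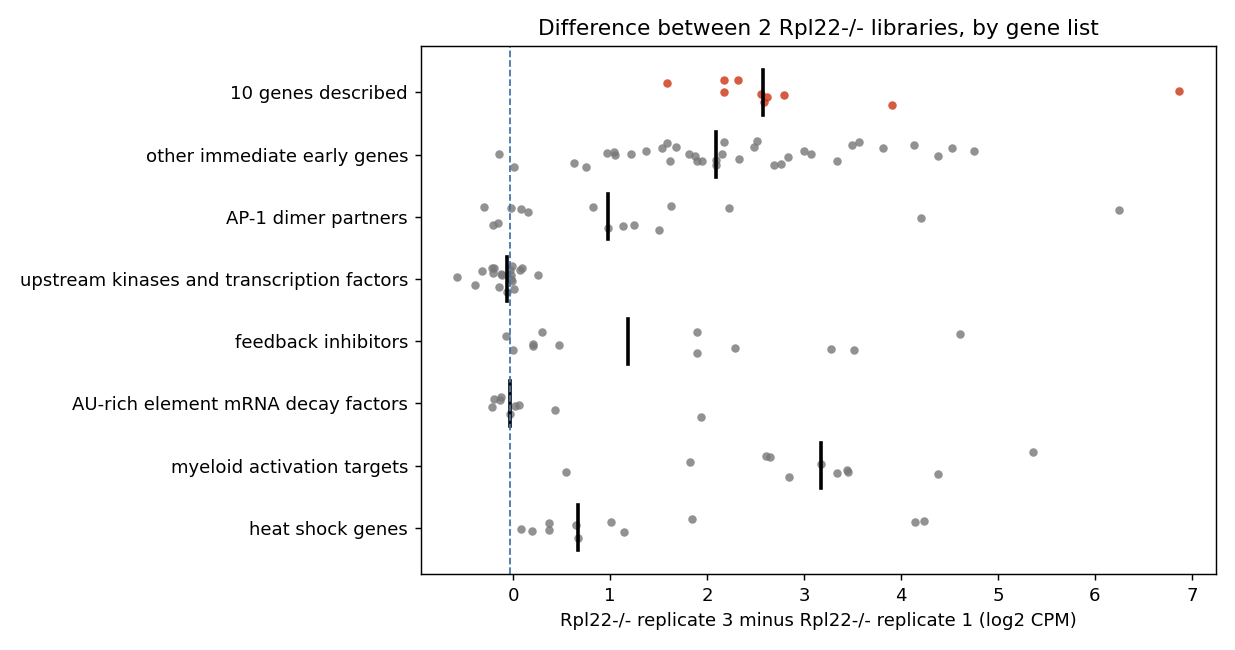
Difference in log2 CPM between Rpl22-/- replicate 3 and Rpl22-/- replicate 1 (horizontal axis) for each tested gene (points) of 8 lists (rows; black bars, list medians; dashed line, median of all tested genes, -0.027). The 10 genes described, the other immediate early genes and the myeloid activation targets have medians of 2.57, 2.09 and 3.17, while upstream regulators and decay factors have medians of -0.064 and -0.034.

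Closest to the mean pattern of the 10 genes over the 6 libraries were Egr3, Klf2, Emp1, 1700056E22Rik and Ppp1r15a. Likeness was the root mean square distance between centred log2 CPM profiles, over 6 libraries and the 13189 other genes whose mean count reached 50. The distances were 0.096, 0.142, 0.187, 0.20 and 0.232 log2 units, beside a median of 0.951 over those genes. Egr3, a relative of Egr1, had 2.24, 2.51 and 2.79 TPM in Rpl22+/+ and 0.755, 2.39 and 7.03 TPM in Rpl22-/-. Klf2, a zinc-finger factor, had 274, 342 and 283 TPM against 128, 401 and 779 TPM, and Ppp1r15a, a phosphatase subunit of the stress response, had 62.9, 74.2 and 65.2 against 36.4, 82.0 and 146 TPM. Among the members themselves, Dusp1 lay nearest to the mean at 0.181, Jun at 0.752 and Atf3 at 1.28 farthest.

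**Figure D5:**
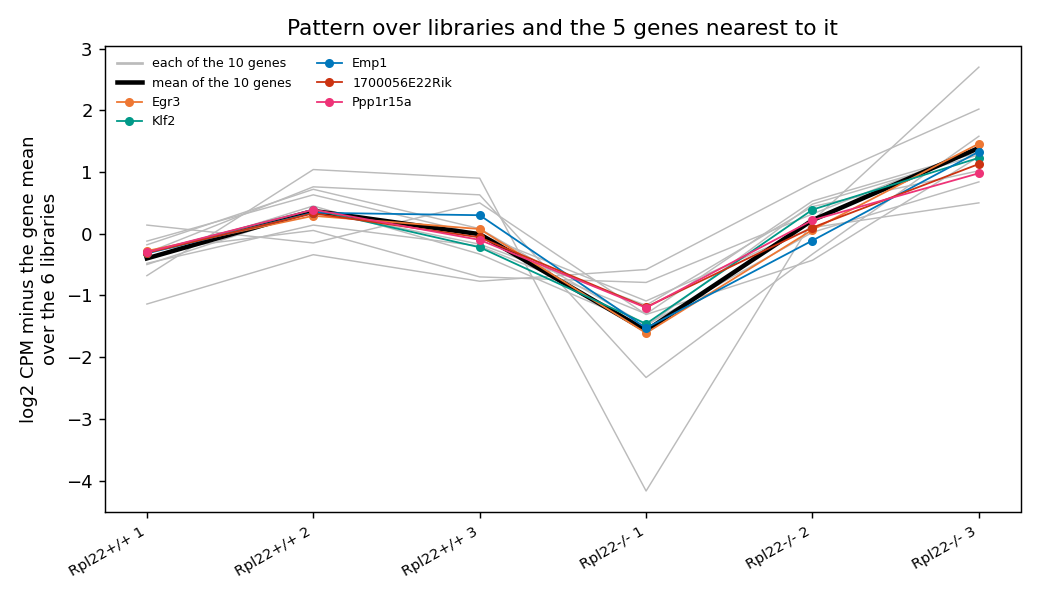
Log2 CPM minus the mean of each gene over the 6 libraries (vertical axis) for the 10 genes (grey), their mean (black) and the 5 nearest other genes (colors), with lines joining the values of 1 gene. The mean of the 10 genes is at -0.40, 0.37 and -0.0075 in Rpl22+/+ and at -1.57, 0.22 and 1.39 in Rpl22-/-, and the 5 genes lie at root mean square distances of 0.096 to 0.232 from it.

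Summed over each list, markers of other cell types did not differ between the Rpl22-/- libraries to the same degree as the 10 genes. Those of the sorted myeloid cells were at 64500, 67500 and 56300 TPM, and at 44800 to 50800 TPM in Rpl22+/+. Cd14, counted among the myeloid activation targets, had 15.5, 50.9 and 154 TPM in Rpl22-/- and 133, 166 and 161 TPM in Rpl22+/+. Whether the make-up of the sorted cells differed was not tested. Summed erythroid markers (7 of 7 genes detected) were at 2870, 3060 and 1670 TPM in Rpl22-/- and 248 to 286 TPM in Rpl22+/+, lowest in the Rpl22-/- library where the 10 genes were highest. B cell markers were at 286, 390 and 378 TPM and T cell markers at 14.1, 13.0 and 15.5 TPM, against 399 to 506 and 34 to 42.5 TPM in Rpl22+/+. Macrophage markers were at 40.5, 59.7 and 52.9 TPM, with Vsig4 and Mertk under 1 TPM in every library, and dendritic cell markers were at 3.51, 3.5 and 4.74 TPM, with Siglech, Xcr1 and Zbtb46 under 1 TPM. Platelet markers were at 5.61 to 5.96 TPM, with Pf4 and Ppbp under 1 TPM, and basophil, mast cell and eosinophil markers at 17.2 to 20.2 TPM, with Epx under 1 TPM. NK cell markers (18.7, 22.3 and 28.3 TPM, 4 of 4 genes detected) were 1.51 times higher in replicate 3 than in replicate 1. Stromal markers (33.5, 37.4 and 39.2 TPM, with Col1a2, Col3a1, Cdh5 and Kdr, 4 of 6 genes, under 1 TPM) were 1.17 times higher. Dendritic, B, macrophage and T cell markers were also higher in replicate 3, by 1.35, 1.32, 1.3 and 1.11 times. The part of these cell types in the result was not tested. Depth also moved with the arrangement, at 35828500, 99806050 and 102866127 reads in Rpl22-/- replicates 1 to 3. The share of reads from mitochondrial genes was 1.73%, 1.90% and 2.03% in these libraries and 1.34% to 1.90% in Rpl22+/+. The part of depth in the differences was not tested.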

How the data were processed

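Poly(A) RNA of 6 libraries was sequenced by the authors with a stranded kit; per the labels' processing notes, reads were trimmed with Trimmomatic and quantified with Salmon on GRCm39, and versions are not given in the sources used here. The authors deposited estimated counts per transcript (which need not be whole) and TPM per transcript for each library. Another deposited table holds their DESeq2 comparison (fold changes and p-values), of which only gene positions were used. Estimated counts and TPM were summed to genes through transcript identifiers of GENCODE vM21 (136036 of 276623 transcripts matched, with 98.0% to 98.1% of reads) and counts were rounded. Genotypes were compared on genes passing filterByExpr with edgeR 4.0.16 in R 4.3.3 (TMM factors, quasi-likelihood F test, genotype as the only term, all 6 libraries), with Benjamini-Hochberg adjustment over 16656 genes and calls at 0.05. Ranges are in log2 CPM with a prior count of 2, and folds given without a log are ratios of TPM. Intervals cover counting error only. Alternatives were DESeq2 1.42.0 size factors or its test, no composition factor, other filters, limma 3.58.1 (voom, log2(TPM + 1) and log2(TPM + 0.1)), an offset for GC content, the replicate number as a block and each library left out. Sums over protein-coding transcripts only, the intron classes, the class of shortened Fosb transcripts and the ratios were chosen after seeing the data. Tests were tested on simulated data.

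The 10 genes and all lists were chosen with earlier results of these data known. Genes named are the 10 members, Rpl22 as a check of the labels, for each list up to 4 called genes with the smallest p-values and the 2 with the largest difference of Rpl22-/- replicate 3 from replicates 1 and 2, and the 5 genes nearest to the members' mean pattern. A gene that this rule names among the upstream regulators is not reported here. Further genes (Pim1, Jund, Batf, Jdp2, Zfp36, Cd14, the sort and marker genes and those called only with the block) were named after their values were seen. Replicate numbers from the titles were taken as pairs, since deviations from the group means correlated at 0.57, 0.715 and 0.129 across 13199 genes for the same number, although Rpl22+/+ replicate 3 correlated more with Rpl22-/- replicate 1 (0.431). Figures were drawn with matplotlib 3.10.9.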

Additional observations from a re-analysis of the deposited data

How the results depend on the processing

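Over all genes, the number called higher was 2288 and lower 2306. It was 3543 higher and 2222 lower with no composition factor, 3219 and 2137 on log2(TPM + 1), 3273 and 2149 on log2(TPM + 0.1), and 3553 higher and 3812 lower with the GC offset and the replicate block together. Leaving out a library gave 1175 to 3540 higher and 1392 to 3311 lower, the largest counts without Rpl22+/+ replicate 2. Among the 10 genes, 0 were called, and 1 (Jun) was called higher with the DESeq2 test, with the replicate block and without Rpl22-/- replicate 1 (0 to 1 over the libraries left out, 0 lower in each). The block changed no other call among the 10 genes. Of 180 fitted differences under alternatives, 148 kept their sign and call, 3 (Jun) became calls and 29 reversed in sign, none of them called. Klf6 reversed with DESeq2 size factors (-0.00091), the DESeq2 test (-0.0066), voom (-0.37), log2(TPM + 1) (-0.26), log2(TPM + 0.1) (-0.27), the replicate block (-0.32), the GC offset (-0.074) and both of these (-0.47), and on leaving out a library ran from -0.98 to 0.46. Atf3 reversed with voom (-0.61), log2(TPM + 1) (-0.53), log2(TPM + 0.1) (-0.72), the replicate block (-0.76) and that block with the GC offset (-0.68), and ran from -1.31 to 1.34 on leaving out a library. Nr4a1 reversed with no composition factor (0.13), no filter (0.032) and coding transcripts only (0.032, chosen after seeing the data), and ran from -1.44 to 0.49. Leaving out a library reversed Junb (-0.79 to 0.23), Ier2 (-0.57 to 0.11), Fos (-0.086 to 0.81) and Dusp1 (-0.15 to 0.98). The cause was not tested. The arrangement of the 3 Rpl22-/- libraries held for 10 of 10 genes in log2(TPM + 0.1), with no composition factor, with DESeq2 size factors, GC-corrected and from coding transcripts only. Of 50 alternative values of the excess of Rpl22-/- replicate 3, 49 moved by less than 1 SD of Rpl22+/+, and Dusp1 rose from 1.79 to 2.56 from coding transcripts only. With the GC correction, replicate 3 was the highest of 6 libraries for 7 genes and all Rpl22+/+ libraries lay between replicates 1 and 3 for 6. The Rpl22+/+ range of Egr1 moved from 0.62 to 0.23 on log2(TPM + 1). Some low values of Rpl22-/- replicate 1, the library of lowest depth, rest on few reads, such as 74 for Atf3 and 45 for the intron-containing Nr4a1 transcript.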
